A study of Homo sapiens with 12 samples.

Results

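The transcripts of the IRE1-XBP1 branch of the unfolded protein response, with genes of ER-associated degradation (ERAD) that this branch switches on, were followed through 12 RNA-seq libraries of mantle cell lymphoma (MCL) cell lines. The set was a named list of 10 genes out of 63677 in the count table: ERN1 (ENSG00000178607), XBP1 (ENSG00000100219), DNAJB9 (ENSG00000128590), SEL1L (ENSG00000071537), DERL3 (ENSG00000099958), EDEM1 (ENSG00000134109), HERPUD1 (ENSG00000051108), SYVN1 (ENSG00000162298), DNAJC3 (ENSG00000102580) and WFS1 (ENSG00000109501). All 10 were found by their Ensembl identifiers and all 10 passed the filter on low counts.

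JEKO1, JVM2 and MAVER1 are established B-cell lines. Each was left untreated (control) or was exposed for 48 h to ironomycin, to ibrutinib or to ironomycin + ibrutinib, which makes 4 groups. Ironomycin is a derivative of salinomycin that holds iron in lysosomes, and ibrutinib inhibits the kinase BTK of the B-cell receptor pathway. Ironomycin was given at 50 nM to JEKO1 and at 250 nM to JVM2 and MAVER1, and ibrutinib at 0.5 µM to JEKO1, 1.5 µM to JVM2 and 6.25 µM to MAVER1. There is 1 library for every line and treatment, and lines serve as the 3 replicates. Line and dose vary together, and their parts in a difference between lines cannot be told apart, except that JVM2 and MAVER1 had the same ironomycin dose.

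When proteins misfold in the endoplasmic reticulum (ER), the membrane sensor IRE1α, encoded by ERN1, cuts a short intron out of the XBP1 mRNA in the cytosol. The shifted reading frame gives XBP1s, a transcription factor that raises ER chaperones, the ERAD machinery and secretory pathway genes. ERAD recognises misfolded ER proteins, moves them through the membrane past the ubiquitin ligase SYVN1 (HRD1) and its partner SEL1L, and hands them to the proteasome. In the B lineage this branch is best known for the expansion of the ER when B cells become plasma cells.

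The stretch of XBP1 that IRE1 excises is shown because it decides what the counts can and cannot say. It lies in exon 4 of 5 of transcript XBP1-201, within the coding part, at chr22:28796127-28796152 on the minus strand (GRCh38, GENCODE 29). It was found as the 26 bases between the cut points within a pair of CNGCAGN loop sequences, each cut between CNG and CAGN. The excised bases are in capitals, 5′ to 3′ with 24 bases on each side.
unspliced XBP1: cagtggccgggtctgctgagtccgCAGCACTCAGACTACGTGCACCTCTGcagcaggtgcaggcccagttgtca
spliced XBP1: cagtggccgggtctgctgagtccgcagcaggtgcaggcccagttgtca

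Removal of these bases lengthened the reading frame from the first ATG of XBP1-201 from 261 to 376 codons. Of the 7 annotated XBP1 transcripts, 4 hold the excised bases and 2 are joined without them. The counts are per gene, so the XBP1 value below is the sum of both forms and says nothing of splicing. Any response of XBP1s could be read only indirectly, through other transcripts such as its known targets in the set. Whether XBP1s caused the changes of those transcripts was not tested.

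Promoters were read from the RefSeq table (GRCh38.p14), which gave 10 windows for 9 of the genes (XBP1 has 2) and none for DERL3. They were searched on both strands for 4 motifs of the unfolded protein response, from 250 bases before to 50 after the start. The ER stress element ERSE (CCAAT and CCACG with 9 bases of any kind between them) was found in 1 XBP1 window and in 0.0769% of all 35116 promoters of the same length. ERSE-II (ATTGG and CCACG with 1 base of any kind between them, so that it shares CCACG with ERSE) was found in HERPUD1 and in 0.0541% of all promoters. UPRE (TGACGTGG, 0.729% of all promoters) and CRE (TGACGTCA, 1.85%) were found in 0 of the 10 windows, which says only that these letters are not there. The matches are shown with the fixed letters of the motif in capitals and up to 40 bases on each side, ending before the transcription start. The XBP1 stretch is chr22:28800570-28800661 on the minus strand, with the match beginning 52 bases before the start and 33 bases between its end and the start, and the HERPUD1 stretch is chr16:56931985-56932075 on the plus strand, with the match beginning 117 bases before the start and 106 bases between its end and the start.
XBP1 promoter: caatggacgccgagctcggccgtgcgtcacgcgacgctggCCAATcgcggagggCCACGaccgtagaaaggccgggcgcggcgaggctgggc
HERPUD1 promoter: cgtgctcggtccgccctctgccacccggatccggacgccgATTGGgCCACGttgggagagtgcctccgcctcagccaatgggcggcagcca

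The libraries held 35448523 to 38630809 counted reads (median 38212833), and no value of the 10 genes rested on fewer than 331 reads, so the spread between lines and treatments rather than counting limits the precision. B-cell markers MS4A1, CD79A, CD79B and PAX5 were at or above 97.4 CPM (reads scaled to library size) in every library. The B-cell marker CD22 was lower in 2 of the lines, at 9.18 to 26.8 CPM in JEKO1 and 18.0 to 58.6 in MAVER1 beside 311 to 358 in JVM2. The summed level of the T-cell markers CD3D, CD3E and CD2 was at most 3.20 CPM. The MCL markers differed by line: CCND1 was at 2182 to 3513 CPM in JEKO1, 216 to 322 in JVM2 and 4252 to 4828 in MAVER1, while SOX11 had 0 reads and CD5 at most 2 in the JVM2 libraries. CCND2, also among the MCL markers, went the other way, at 243 to 270 CPM in JVM2. It was at most 0.757 CPM in JEKO1 and 0.237 in MAVER1. JVM2 stands apart in these markers, and the counts over the 3 lines are given with and without it. With 1 culture per line and treatment, fewer living cells of a kind and less RNA per cell cannot be told apart.

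Levels are given in CPM scaled by TMM, edgeR's correction for library composition. In untreated cells, levels set against exon length (CPM per kb of exon) differed widely between the genes. XBP1 was the highest of the 10 in JVM2 (95.4 CPM per kb) and MAVER1 (146 CPM per kb), and the fourth in JEKO1 (12.2 CPM per kb), behind SYVN1, HERPUD1 and EDEM1. ERN1 was among the lowest, at 2.69 CPM per kb in JEKO1, 4.20 in JVM2 and 2.63 in MAVER1. Between lines, XBP1 varied most, by 12-fold from JEKO1 to MAVER1, followed by DNAJC3 with 5.19-fold, whereas WFS1 varied by 1.27-fold and HERPUD1 by 1.43-fold. There is 1 untreated library per line, so these orders have no replicate check.

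ERN1, the stress sensor and ribonuclease itself, had the largest estimate of the set with ironomycin and with both drugs against control, both over the 3 lines and, for ironomycin, in the fit of each line (below). In JEKO1 it stood at 29.2 CPM in control, 27.7 with ibrutinib, 179 with ironomycin and 287 with the combination. In MAVER1 the same 4 libraries had 28.5, 25.6, 153 and 254 CPM. In JVM2 they had 45.6, 33.3, 66.1 and 73.8 CPM. The libraries with ironomycin lay above those without it in every line, but the gap in JVM2 was small, and JVM2 started from the highest level.

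XBP1 was the member whose lines were least alike. JEKO1 had 36.8 CPM in control, 41.8 with ibrutinib, 102 with ironomycin and 125 with both drugs. MAVER1, with 441, 467, 501 and 540 CPM, started at a level that JEKO1 did not reach. JVM2 had 289, 275, 256 and 239 CPM, the lower values being those with ironomycin.

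**Figure D1:**
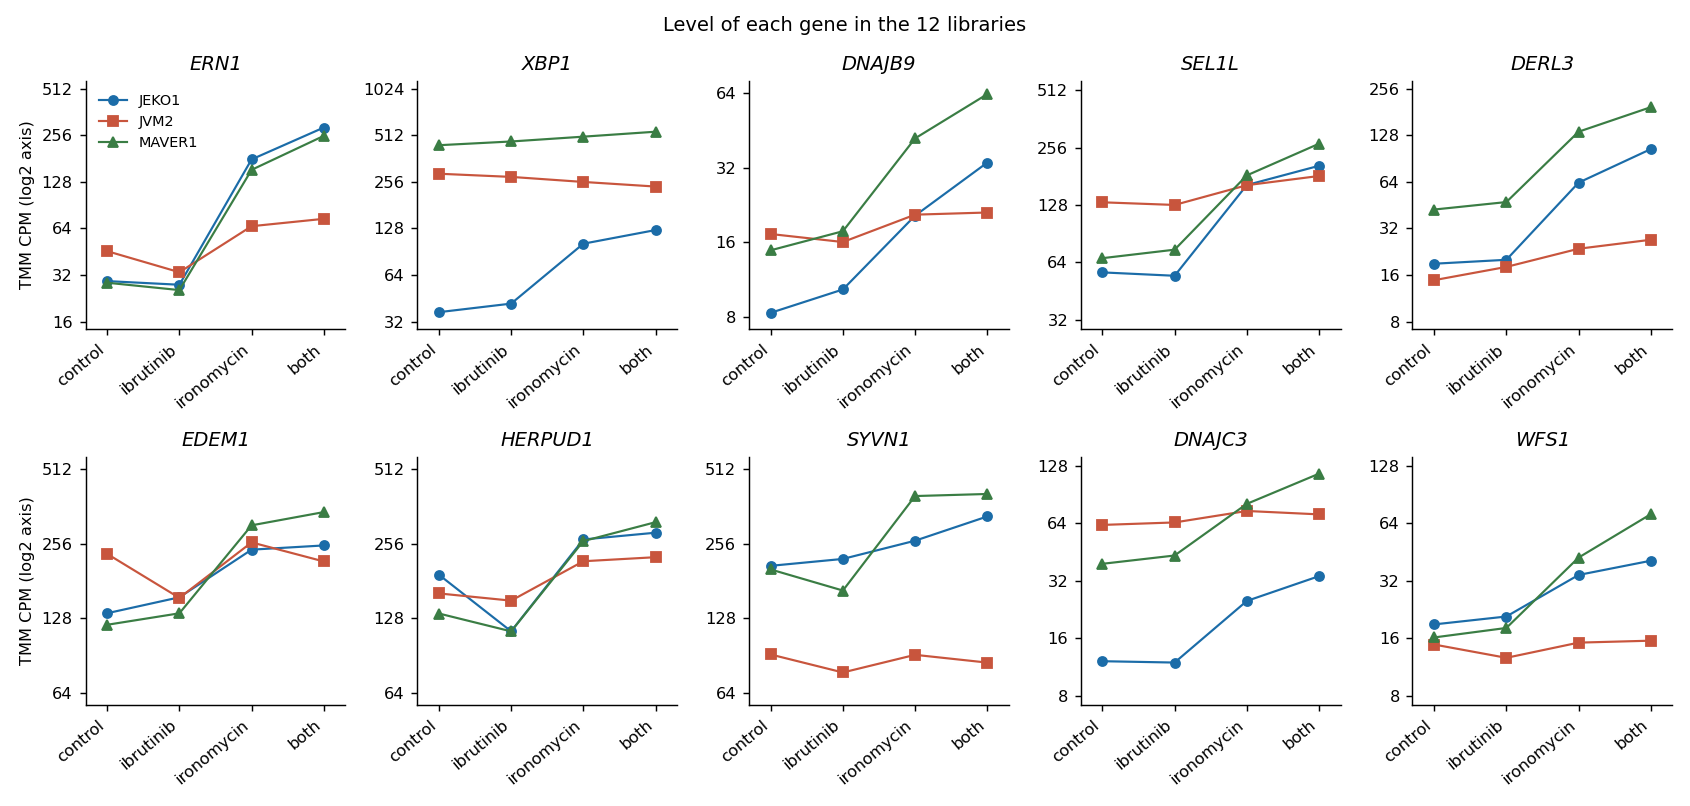
TMM-scaled CPM (log2 axis) of each of the 10 genes in the 12 libraries; each point is 1 library, the lines join the 4 treatments of a cell line, and the x axis names the treatment. ERN1 reached 287 CPM in JEKO1 and 254 in MAVER1 with both drugs but 73.8 in JVM2, and XBP1 ran from 36.8 to 125 CPM in JEKO1 and from 239 to 289 in JVM2.

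The ERAD ligase complex was read from 4 members. SEL1L, the adaptor that binds SYVN1 and brings substrates to it, was at 56.8 CPM in control, 54.5 with ibrutinib, 163 with ironomycin and 206 with the combination in JEKO1. In MAVER1 it had 67.4, 74.7, 183 and 269 CPM in the same order, and in JVM2 132, 128, 163 and 182 CPM. Untreated JVM2 thus held more SEL1L transcript than the other lines, and with ironomycin alone the 3 lines came to similar levels.

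SYVN1, the ubiquitin ligase, had 208 CPM in control, 222 with ibrutinib, 263 with ironomycin and 329 with the combination in JEKO1. It had 201, 165, 398 and 406 CPM in MAVER1, and 91.3, 77.2, 91.0 and 84.7 CPM in JVM2, where the libraries with and without ironomycin overlapped. HERPUD1, a membrane protein that helps to assemble the complex, had 192, 113, 266 and 283 CPM in JEKO1. MAVER1 had 134, 113, 262 and 312 CPM and JVM2 161, 151, 217 and 225 CPM. HERPUD1, like ERN1, had its lowest library under ibrutinib in every line, and the gap to control was widest in JEKO1. DERL3, a rhomboid-like protein of the export channel, had 18.9, 20.1, 63.2 and 104 CPM in JEKO1. MAVER1 had 42.4, 47.4, 135 and 194 CPM and JVM2 14.8, 18.0, 23.6 and 27.0 CPM.

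The remaining members act on the substrate inside the ER or on its membrane. EDEM1, which marks misfolded glycoproteins for degradation by trimming mannose, had 134 CPM in control, 155 with ibrutinib, 242 with ironomycin and 251 with the combination in JEKO1. In MAVER1 the values were 120, 134, 303 and 343 CPM, and in JVM2 232, 154, 259 and 217 CPM, so that in JVM2 the control lay above the library with both drugs. DNAJB9, a cochaperone of BiP that also holds IRE1 inactive, had 8.32, 10.3, 20.5 and 33.6 CPM in JEKO1. MAVER1 had 14.9, 17.8, 42.1 and 63.5 CPM and JVM2 17.3, 16.1, 20.7 and 21.1 CPM.

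DNAJC3, a BiP cochaperone known as an inhibitor of PERK, had 12.1 CPM in control, 11.9 with ibrutinib, 25.1 with ironomycin and 33.9 with the combination in JEKO1. It had 39.3, 43.4, 81.1 and 117 CPM in MAVER1 and 62.9, 64.8, 74.4 and 71.4 in JVM2. WFS1, an ER membrane protein that curbs ATF6, had 18.9, 20.8, 34.3 and 40.8 CPM in JEKO1. MAVER1 had 16.1, 18.1, 42.4 and 71.6 CPM and JVM2 14.8, 12.6, 15.2 and 15.5 CPM. For both genes JEKO1 and MAVER1 separated clearly by ironomycin and JVM2 hardly did.

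Whether ironomycin changed the genes over the 3 lines was tested with edgeR's quasi-likelihood test, in a model of treatment plus line, the p-values being adjusted over the 18674 genes tested; a gene is called at an adjusted p under 0.05. With ironomycin against control, 0 of the 10 genes were called, where 0.584% of all genes were. An unadjusted p under 0.05 was found for 8 of the 10 and for 4198 of the 18674 genes tested. All 10 estimates were above zero, with a median log2 fold change of 0.75 beside 0.03 over all genes tested. DERL3 came nearest to the threshold at 1.37 (standard error 0.29, adjusted p = 0.0616), and ERN1 had the largest estimate at 1.82 (standard error 0.46, adjusted p = 0.0771). XBP1 had 0.45 (95% interval -0.28 to 1.18, adjusted p = 0.453). Without JVM2, edgeR called 8 of the 10, all higher, and XBP1 and SYVN1 were the exceptions, while DESeq2 on all lines called 7. The share of 0.584% belongs to the main fit, and the shares of all genes called in these other fits are not given here.

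With both drugs against control, 8 of the 10 genes rose at an adjusted p under 0.05, where 28.2% of all genes tested were called and 14.2% rose. On the log2 scale ERN1 rose by 2.42 (standard error 0.47, adjusted p = 0.00581), DERL3 by 1.89 (standard error 0.30, adjusted p = 0.00347), DNAJB9 by 1.49, SEL1L by 1.45, WFS1 by 1.14 and DNAJC3 by 1.10. HERPUD1 rose by 0.76 and EDEM1 by 0.76. Thus 6 of the 8 reached a log2 fold change of 1, which 6.29% of all genes tested did. SYVN1 (0.53, adjusted p = 0.0911) and XBP1 (0.58, 95% interval -0.15 to 1.32, adjusted p = 0.211) were not called. With a line left out, 0 of the genes were called without JEKO1, 0 without MAVER1 and 9 without JVM2. A fit of the 6 control and both-drug libraries alone, which kept every line, also called 0. All of these fits hold fewer libraries, the one without JVM2 included. Whether the counts of 0 came from the line left out or from fewer samples was not tested. The shares of all genes called in these reduced fits are not given here.

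**Figure D2:**
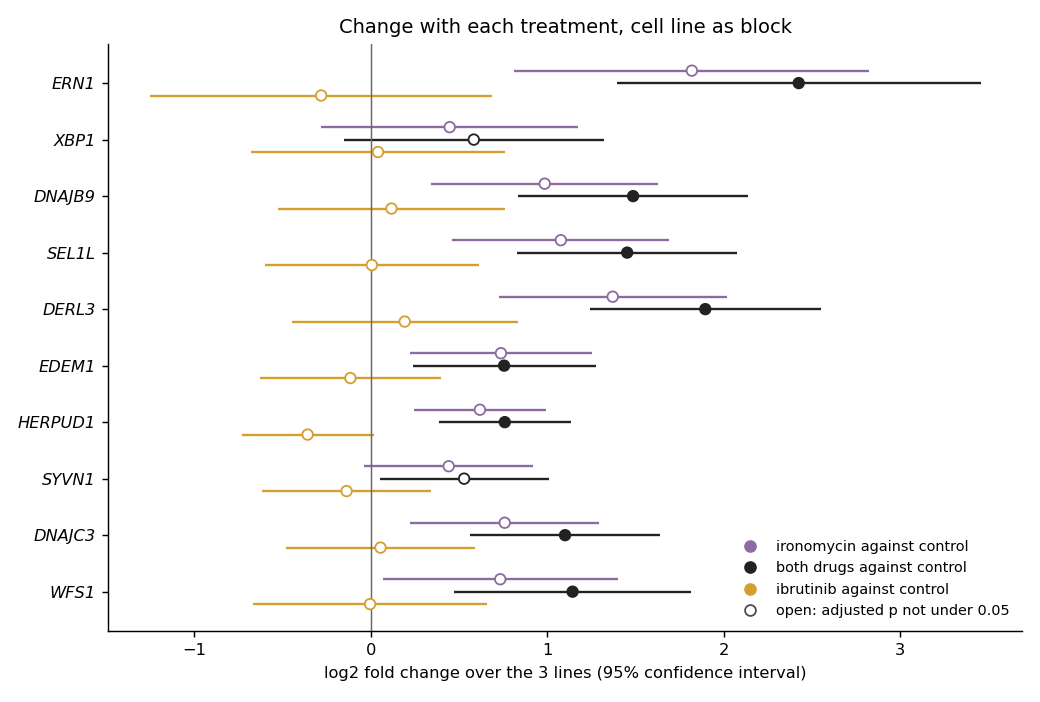
Log2 fold change over the 3 lines with its 95% confidence interval (x axis) for each gene (y axis) with ironomycin, both drugs or ibrutinib against control; filled points have an adjusted p under 0.05 in edgeR's quasi-likelihood test. The 8 filled points belong to the comparison of both drugs, the ibrutinib points lie near zero, and the 3 comparisons share the control libraries.

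Ibrutinib alone gave no call. With ibrutinib against control 0 of the 10 genes were called by edgeR, as were 0% of all genes, and DESeq2 called 0. In edgeR 0 of the 10 had an unadjusted p under 0.05, where 680 of the 18674 genes tested did. The estimates ran from -0.36 for HERPUD1 (95% interval -0.73 to 0.02) to 0.19 for DERL3 (95% interval -0.45 to 0.83). The intervals are not adjusted for the number of genes tested, so differences beyond them could also have gone uncalled.

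The addition of ibrutinib to ironomycin was compared in 2 ways. With both drugs against ironomycin, 0 genes of the set and 0% of all genes were called. The estimate was above zero for 10 of the 10, with a median of 0.36 beside 0.01 over all genes. An unadjusted p under 0.05 was found for 0 of the 10, where 1970 of the 18674 genes tested had one. ERN1 had 0.61 (95% interval -0.34 to 1.55). For the excess of the combination over the added effects of either drug (log2), 0 genes of the set and 0% of all genes were called; the estimates were from 0.10 for XBP1 to 0.89 for ERN1 (95% interval -0.47 to 2.24), and DESeq2 called 0 in either comparison. The 3 lines differed here as well. The log2 ratio of both drugs to ironomycin for ERN1 was 0.68 (JEKO1), 0.16 (JVM2) and 0.73 (MAVER1), and that of DNAJB9 was 0.71, 0.03 and 0.59. In each of JEKO1 and MAVER1 10 of the 10 ratios were above zero, and in JVM2 6 of the 10. With both drugs against ibrutinib, 9 of the 10 genes rose, where 23.3% of all genes were called and 11.8% rose, 7 of them with a log2 fold change of at least 1 (4.66% of all genes), and XBP1 was not called (0.54, adjusted p = 0.258). This comparison shares the both-drug libraries with the one against control, and its count also fell to 0 without JEKO1 or MAVER1.

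The ironomycin effect was then estimated in each line, as the mean of the pair of libraries without ibrutinib and the pair with it, with all 12 libraries in 1 fit. The p-values measure the spread between such pairs and not between separate cultures. In JEKO1, 10 of the 10 genes rose (33.3% of all genes called, 17% higher and 16.2% lower), 6 of them with a log2 fold change of at least 1 (7.35% of all genes). ERN1 led with a 7.97-fold rise, 2.99 in log2 terms (standard error 0.14, adjusted p = 1.05e-06), followed by DERL3 with 2.06 and SEL1L with 1.72, and SYVN1 had the smallest change at 0.45 (adjusted p = 0.0115). In MAVER1, 9 of the 10 rose (32.7% of all genes called, 16.6% higher and 16% lower), all 9 with a log2 fold change of at least 1 (6.35% of all genes), ERN1 by 2.87 (standard error 0.14, adjusted p = 1.40e-06), DERL3 by 1.85 and WFS1 by 1.70. XBP1 was not called in MAVER1 (0.20, 95% interval -0.02 to 0.42, adjusted p = 0.163). The median over the 10 genes was 1.39 in JEKO1 and 1.50 in MAVER1, beside 0.03 and 0.02 over all genes tested.

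JVM2 answered with 2 genes of the 10 (3.27% of all genes called, 1.92% higher and 1.35% lower). ERN1 rose by 0.85 (standard error 0.13, adjusted p = 0.0113) and DERL3 by 0.63 (standard error 0.12, adjusted p = 0.0227). SEL1L had 0.40 with an adjusted p of 0.0509, HERPUD1 had 0.50 with 0.0651, and XBP1 had -0.19 (95% interval -0.41 to 0.03, adjusted p = 0.330). Both JVM2 libraries with ironomycin lay above both without it for 7 of the 10 genes, all but XBP1, EDEM1 and SYVN1, where 26% of all genes did. The same held for 10 of the 10 in JEKO1 (32.6% of all genes) and 10 of the 10 in MAVER1 (33.9%).

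**Figure D3:**
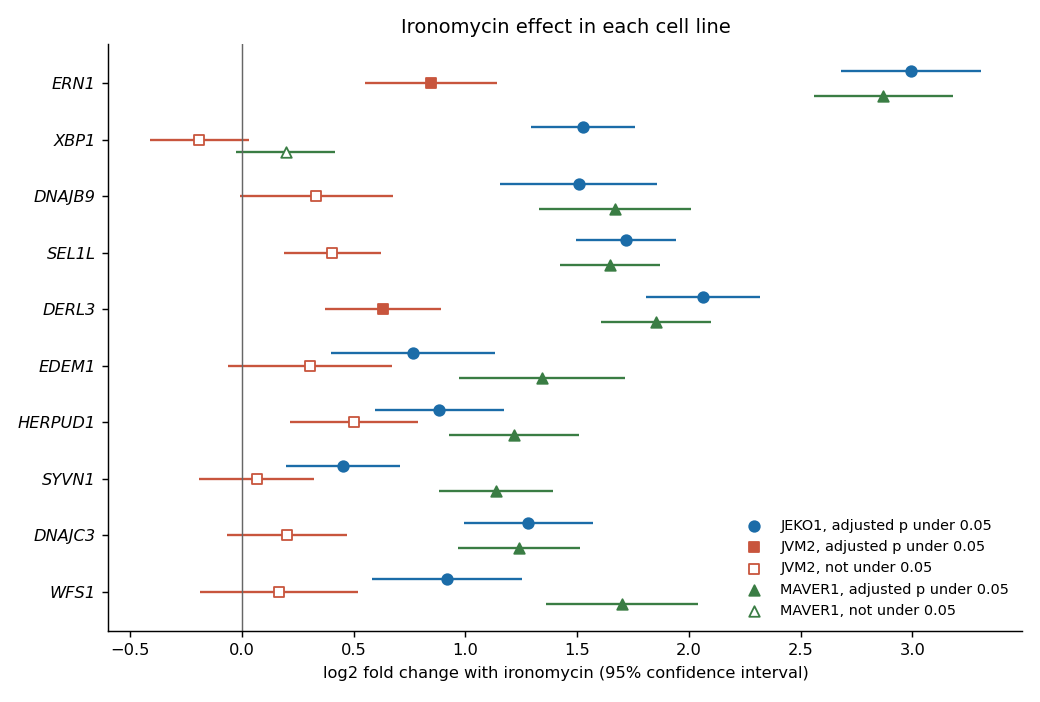
Log2 fold change with ironomycin in each cell line (x axis, with 95% confidence interval), as the mean over the pairs of libraries without and with ibrutinib, for each gene (y axis); filled points have an adjusted p under 0.05. JVM2 lies below JEKO1 and MAVER1 for each of the 10 genes, and XBP1 is the gene for which JEKO1 stands apart from MAVER1.

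The difference between lines was tested itself. In the test of the ironomycin effect by cell line (2 coefficients), 9 of the 10 genes differed, where 9.38% of all genes did, and HERPUD1 did not pass (adjusted p = 0.0709). Set against the average of the other lines, the effect in JVM2 was lower for 8 of the 10 genes (7.05% of all genes called, 4.01% lower and 3.04% higher), 7 of them by a log2 difference of at least 1 (1.87% of all genes). The differences were -2.09 for ERN1 (standard error 0.17, adjusted p = 0.000118), -1.33 for DERL3, -1.28 for SEL1L, -1.25 for DNAJB9, -1.14 for WFS1, -1.06 for DNAJC3, -1.05 for XBP1 and -0.73 for SYVN1. For EDEM1 the difference was -0.75 with an adjusted p of 0.0513 and for HERPUD1 -0.55 with 0.0647. JEKO1 and MAVER1 differed in 1 gene of the 10 (2.78% of all genes called, 1.34% higher and 1.44% lower; 1.25% with a log2 difference of at least 1). It was XBP1, whose effect was larger in JEKO1 by 1.33 (standard error 0.14, adjusted p = 0.00230). SYVN1 (-0.68, adjusted p = 0.0512) and WFS1 (-0.78, adjusted p = 0.0835) had larger estimates in MAVER1 without passing the threshold.

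The ibrutinib effect by cell line could be tested with 2 residual degrees of freedom. It differed for 3 of the 10 genes, where 3.76% of all genes did: EDEM1 (adjusted p = 0.00736), ERN1 (adjusted p = 0.0203) and DNAJB9 (adjusted p = 0.0254). For EDEM1 the log2 ratio of ibrutinib to control came to 0.21 (JEKO1), -0.59 (JVM2) and 0.15 (MAVER1), and with ironomycin present the ratio was 0.06, -0.26 and 0.18. JVM2 was thus below zero in both pairs and the other lines above. For ERN1 the ratios without ironomycin were -0.08, -0.45 and -0.16 in the same order, and those with ironomycin present 0.68, 0.16 and 0.73. For DNAJB9 they were 0.31, -0.11 and 0.25 without ironomycin, and 0.71, 0.03 and 0.59 with it. JVM2 had the lowest ratio of the 3 lines in each of these pairs. In the PERK list described below 11 of 12 genes differed in this test, and in the ATF6 list 0 did.

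Other genes of the pathway were taken from 7 lists, which share some genes, such as HSPA5, HYOU1 and CRELD2. The counts of every list are to be read against the share of all genes called, which was 28.2% with both drugs against control (14.2% higher and 14% lower), 33.3% with ironomycin in JEKO1, 3.27% in JVM2 and 32.7% in MAVER1. In the list of 14 IRE1 partners and regulators, both drugs raised 4 and lowered 2 (28.2% of all genes called). SEC61A1, a channel to which IRE1 binds, rose by 0.77, HSPA5, the chaperone BiP, by 0.67 and SEC63, a partner of that channel, by 0.40, and PTPN1, an ER-bound phosphatase, fell by 0.46. The list median was 0.05, as over all genes tested. In JEKO1 ironomycin raised 5 and lowered 4 of the list. The counts in MAVER1 were also 5 and 4, and JVM2 had 0 calls (33.3%, 32.7% and 3.27% of all genes called).

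Of the 39 other ERAD components, both drugs raised 10 and lowered 7 (14.2% of all genes higher and 14% lower), with a median of 0.21. Among those that rose, DNAJC10 (0.77), a disulfide reductase of the ER lumen, and ERLEC1 (0.77), a lectin for trimmed glycans, work on the substrate in the lumen, and SELENOS (0.74) is a membrane anchor for VCP. EDEM3 (0.48), OS9 (0.43), MAN1B1 (0.59) and UGGT1 (0.42), which read or modify glycans, rose too. FBXO6, a cytosolic glycan receptor, fell by 0.73. VCP, the ATPase that pulls substrates out of the membrane, fell by 0.41, and its cofactors UFD1 and NPLOC4 fell by 0.33 and 0.27. The lumenal and cytosolic grouping was noticed after the values were seen and carries no test. In single lines ironomycin raised 18 of the 39 in JEKO1 and lowered 5, and raised 18 in MAVER1 and lowered 7. The single call in JVM2 was 1 rise, that of ERLEC1 (0.56). The shares of all genes called were 33.3% in JEKO1, 32.7% in MAVER1 and 3.27% in JVM2.

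**Figure D4:**
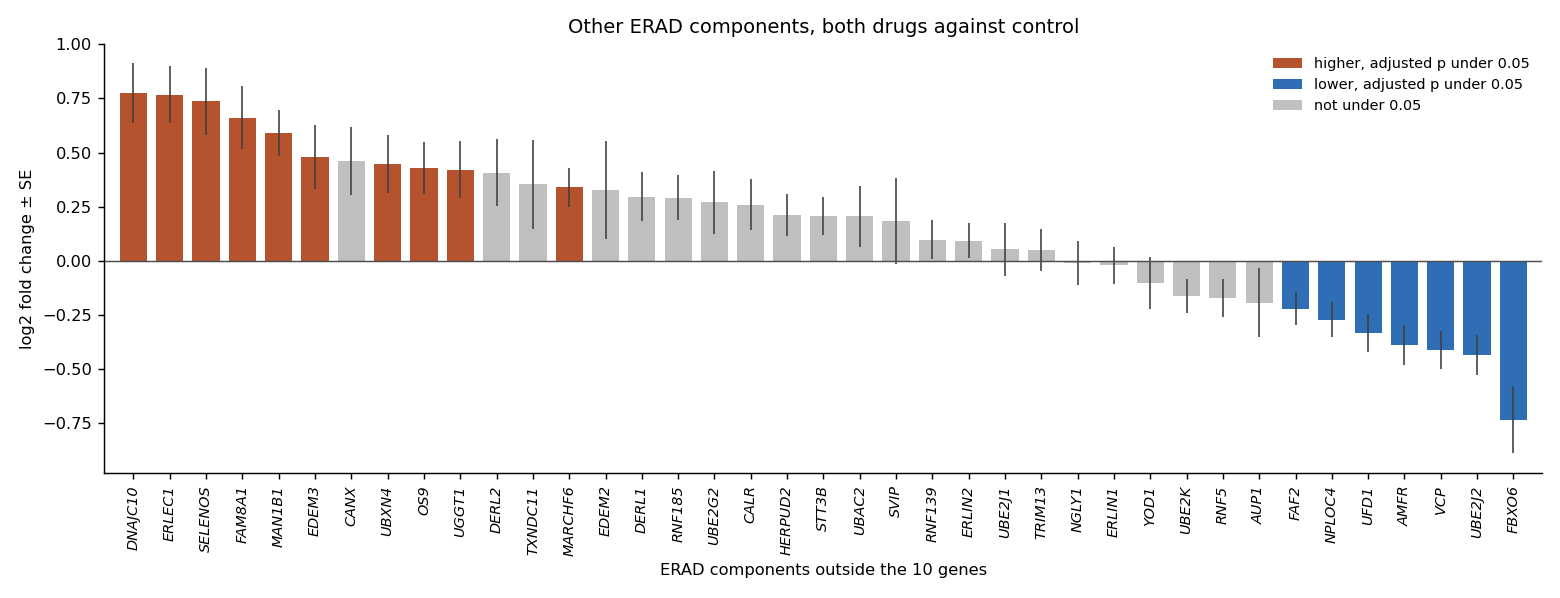
Log2 fold change with both drugs against control (y axis, bars, with standard error) for the 39 ERAD components outside the 10 genes (x axis, ordered by the estimate); coloured bars have an adjusted p under 0.05. The 10 that rose include DNAJC10, ERLEC1 and SELENOS, and the 7 that fell include FBXO6, VCP, UFD1 and NPLOC4.

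XBP1-dependent genes of ER import and secretion moved mostly upward. Of 38, both drugs raised 17 and lowered 1 (SPCS1, -0.38), with a median of 0.51 beside 0.05 over all genes, and 36 estimates were above zero. SEC24D, a coat protein of ER exit vesicles, rose by 1.46, FKBP14, a collagen folding enzyme, by 1.27, ARFGAP3 by 1.26 and HYOU1, an ER chaperone, by 0.93. With ironomycin alone over the 3 lines 3 of them rose, where 0.412% of all genes did: KDELR2 (0.70), SEC31A (0.66) and SEC61G (0.49). In JEKO1 32 rose and 0 fell, in MAVER1 33 rose and 0 fell, and in JVM2 4 rose and 0 fell. The effect in JVM2 was lower than the mean of the other lines for 22 of the 38 and higher for 0 (4.01% of all genes lower and 3.04% higher).

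Transcripts that IRE1 is known to degrade directly did not move one way. Of 9 in the list 7 could be tested, since SCARA3 and PMP22 had 6 and 3 reads in all libraries together. With both drugs PDGFRB, a growth factor receptor, fell by 1.01, while HGSNAT, a lysosomal enzyme, and TNFRSF10B, the death receptor DR5, rose by 0.81 and 0.77. BLOC1S1, the substrate most used to read this activity, had -0.05 (standard error 0.21, adjusted p = 0.875). In MAVER1 ironomycin lowered SPARC (-1.87), DGAT2 (-1.15) and PDGFRB, and in JEKO1 DGAT2 (-0.65) and PDGFRB, beside rises of HGSNAT and TNFRSF10B in both lines. In JVM2 the same 2 genes rose, HGSNAT by 0.57 and TNFRSF10B by 0.46.

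The other 2 branches of the unfolded protein response were read beside this one. In the PERK list both drugs raised 10 of 12 and lowered 0, with a median of 1.32, led by TRIB3 (1.96), VLDLR (1.95), DDIT3, the gene of CHOP (1.82), and CHAC1 (1.61). In the ATF6 list 5 of 12 rose and 0 fell, with a median of 0.53, led by HYOU1, CRELD2 (0.90), HSPA5 and HSP90B1 (0.60). The medians of the ironomycin effect in JEKO1, JVM2 and MAVER1 were 1.59, 0.46 and 1.37 for the PERK list and 1.01, 0.12 and 0.49 for the ATF6 list.

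Plasma cell genes, which are tied to XBP1 in the B lineage, were set beside the set. Of 8, 0 were called by edgeR with both drugs against control (28.2% of all genes called). With ironomycin 5 rose and 0 fell in JEKO1, led by TNFRSF17, the receptor BCMA (2.29), and MZB1 (1.08), and 5 rose and 0 fell in MAVER1, led by TNFRSF17 (1.40) and PRDM1 (1.15), while in JVM2 JCHAIN (-1.29) and TNFRSF17 (-0.50) fell and 0 rose. All genes were called at 33.3% in JEKO1, 32.7% in MAVER1 and 3.27% in JVM2. The summed level of the plasma cell markers PRDM1, SDC1, MZB1, JCHAIN and TNFRSF17 went from 324 CPM in control to 636 with ironomycin in JEKO1, from 624 to 974 in MAVER1, and from 690 to 498 in JVM2. Such a sum weighs genes by level. Over all treatments MZB1 had the widest range in JEKO1 (208 to 455 CPM) and MAVER1 (255 to 580), and JCHAIN in JVM2 (64.3 to 193). In JEKO1 PRDM1 reached at most 4.57 CPM and SDC1 1.56. The summed level of the B-cell markers MS4A1, CD79A, CD79B, PAX5 and CD22 went from 1837 to 1371 CPM in JEKO1, from 1579 to 1099.6 in MAVER1 and from 1650.3 to 1658 in JVM2. These markers move with the result of each line, and their part in it was not tested.

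**Figure D5:**
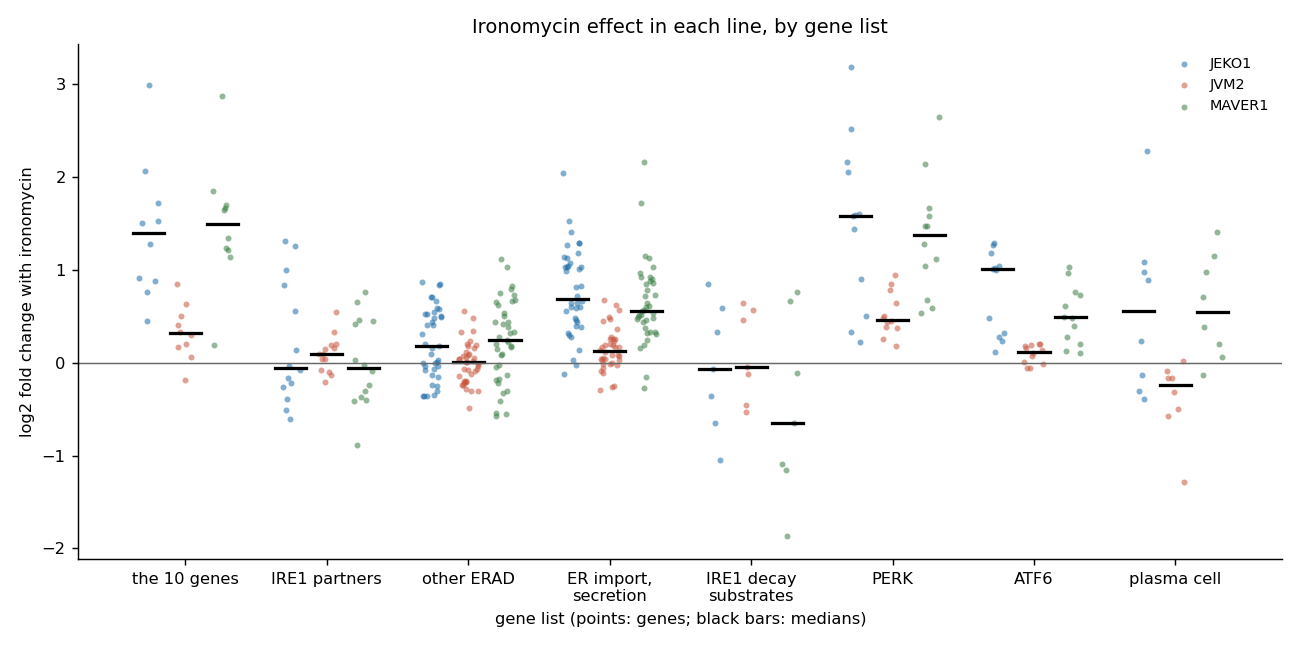
Log2 fold change with ironomycin in each cell line (y axis) for the 10 genes and the 7 lists (x axis); each point is a gene and black bars are medians. The 10 genes had medians of 1.39 (JEKO1), 0.32 (JVM2) and 1.50 (MAVER1), and JVM2 was also the lowest line in the ER import, PERK, ATF6 and plasma cell lists.

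After the mean of each line was subtracted, ERN1 correlated with the other members over the 12 libraries at Pearson r from 0.88 (SYVN1) to 0.99 (SEL1L), XBP1 excepted (0.75). XBP1 had r from 0.48 (SYVN1) to 0.77 (DNAJC3) with the other 9. Among 11383 named genes whose average reached 1 log2 CPM, those most like ERN1 were NEAT1, SEL1L, WIPI1, NFXL1 and ARMCX3, each with r = 0.99. Many genes outside the set were as much like ERN1 as its members. By rank, SEL1L was 2, DERL3 18, DNAJC3 23, DNAJB9 49, WFS1 421, HERPUD1 479, EDEM1 524, SYVN1 1001 and XBP1 2209. The genes most like XBP1 were IFIT5 (0.98), NMI (0.97), BTN3A3 (0.97), RBM33-DT (0.97) and ARAP2 (0.96). The points share lines and treatments, and these values are descriptions.

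Some members overlap other genes, and whether the counting used strand is not given in the sources used here. DERL3 shares 2923 exon bases with SMARCB1 on the opposite strand, which was not called in any line (-0.26 in JEKO1, -0.19 in JVM2 and -0.15 in MAVER1). SYVN1 shares bases with FAU on its own strand and MRPL49 on the other. With ironomycin FAU fell in JEKO1 (-0.47), and MRPL49 fell in JEKO1 (-0.57) and MAVER1 (-0.32). DNAJB9 shares 183 bases with THAP5 and 99 with PNPLA8 on the opposite strand, and both rose with ironomycin in MAVER1 (0.55 and 0.80), against 1.67 for DNAJB9. The values of DERL3, SYVN1 and DNAJB9 are uncertain to that extent.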

How the data were processed

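Polyadenylated RNA of 12 libraries was sequenced in paired-end mode. The table the authors deposited holds unnormalized counts, 1 row for each Ensembl gene; per the labels' processing notes, STAR, DESeq2 and GRCh37 were used, and the counter, annotation and versions are not given in the sources used here. No column was left unused (0). Symbols came from a table of Ensembl names (52181 of 63677 matched).

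Counts were tested in R 4.3.3 with edgeR 4.0.16 (filterByExpr, TMM, quasi-likelihood F-test, Benjamini-Hochberg adjustment over 18674 genes). All 12 libraries entered each fit: treatment and line as block (6 residual degrees of freedom), or separate ironomycin effects per line (4). Lines pair the samples: deviations from treatment means correlated at 0.926 to 0.976 within a line (18 pairs). Log2 CPM and ratios used a prior count of 2; lengths are GENCODE 29 exon unions. On simulated counts for ironomycin against control, with 100 genes changed at each size, 99% of those changed by 2 (log2) were recovered. Of those changed by 1, 90% were recovered, and 21 unchanged genes were called. For the ironomycin effect by cell line the shares were 94% and 73%, with 31 unchanged genes called. These shares need not hold for the set, where most ironomycin effects differed by line. With ironomycin against control, ERN1 and DERL3, for example, had estimates above 1 and were not called.

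The 10 genes and the 7 lists were chosen with earlier results of these data known. Named genes were the 10, the called list members with the 4 largest changes, with a few further list members named after their values were seen, and the 5 genes most like ERN1 or XBP1. Alternatives were other scalings, no filter, DESeq2 1.42.0, no block, fewer libraries and each line left out. 1 of the B-cell markers is not reported here. Tables and plots used Python 3.11.15, pandas 2.3.3 and matplotlib 3.10.9.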

Additional observations from a re-analysis of the deposited data

Results flagged for a closer look

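Effects that differed between the cell lines were singled out by a test of the difference itself (a quasi-likelihood F-test of edgeR, adjusted over all genes tested). For the ironomycin effect the adjusted p was 0.000274 for ERN1, 0.000278 for XBP1, 0.000796 for SEL1L, 0.00146 for DERL3, 0.00611 for DNAJC3, 0.00653 for WFS1, 0.00787 for SYVN1, 0.00795 for DNAJB9 and 0.0441 for EDEM1. JVM2 had the smallest estimate of the 3 lines for each of these genes. For the ibrutinib effect it was 0.00736 for EDEM1, 0.0203 for ERN1 and 0.0254 for DNAJB9. Dose and line vary together and cannot be told apart, except that JVM2 and MAVER1 had the same ironomycin dose.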

How the results depend on the processing

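Of 104 alternative counts of called genes, 79 stayed within 1.5 times the main count and 25 did not; of 360 single values, 270 kept direction and side of the threshold, 67 lost and 22 gained the call, and 1 reversed: XBP1 with ironomycin against control was -0.0024 without JEKO1 and up to 0.773 with another line left out. With ironomycin against control (0 called), 5 genes were called without the filter, 7 by DESeq2, and 0 to 8 when a line was left out. With both drugs against control (8 called), the count was 0 without the replicate block, 0 on the 6 libraries alone and 0 to 9 with a line left out; against ibrutinib (9 called) it was 0, 2 and 0 to 9. In JVM2 (2 called), 4 were called with library totals, 4 without the filter, 4 by DESeq2, 0 at a log2 fold change of at least 1, and 1 to 4 with another line left out. In JEKO1 6 of the 10 reached a log2 fold change of 1. For JEKO1 minus MAVER1 (1 called), 3 were called without the filter, 2 by DESeq2 and 3 without JVM2. For ibrutinib by line (3 called), 5 were called without the filter. With a line left out, ironomycin by line gave 3 to 9 genes and JVM2 against the others 5 to 9. The cause was not tested, except that these fits hold fewer samples where a line or treatments were left out. The shares of all genes called under the alternatives are not given here, so their counts have no background beside them. Library totals in place of TMM moved the median of all genes with both drugs against control from 0.05 to 0.18 on the log2 scale. There is 1 library per line and treatment, so p-values measure the spread between lines or pairs of libraries, which may be partly technical.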
